A study of Arabidopsis thaliana with 9 samples.

Results

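The genes described here build and remodel the plant cell wall: expansins, xyloglucan endotransglucosylase/hydrolases (XTHs) and pectin methylesterases (PMEs). They were chosen by name, as every probe set paired with exactly 1 gene whose current symbol is EXPA, EXPB, EXLA, EXLB, XTH, PME or PMEI followed by a number. This gave 33 probe sets for 32 genes, of 16722 probe sets paired with 1 gene. RefSeq (assembly TAIR10.1) lists 77 genes with such symbols. Measured were 13 of 24 alpha-expansins, 5 of 6 beta-expansins, 4 of 4 expansin-like genes, 9 of 30 XTHs, 1 of 10 PMEs and 0 of 3 PME inhibitors (PMEIs). The pectin side of the set therefore rests on PME61 alone.

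The RNA came from whole Arabidopsis thaliana plants aged 21 days, on 9 Affymetrix whole-transcript arrays in 3 groups of 3. One group grew with 2,5-dichlorobiphenyl (2,5-DCB, a polychlorinated biphenyl) at 50 mg per L, another at 5 mg per L with 4'-OH-2,5-DCB, which carries an added hydroxyl group, and the control group with acetone, the solvent carrier, alone. The doses of the exposures differ, so the hydroxyl group and the dose cannot be told apart in any comparison between them. Each treatment used 6 boxes with 5 plantlets. How boxes were pooled into arrays is not labelled, so the p-values rest on a spread among arrays that could be purely technical. No genotype is named in the labels.

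The growing primary wall is a mesh of cellulose microfibrils, xyloglucan and pectin. Expansins loosen that mesh without cutting it, and alpha- and beta-expansins are the families with known loosening activity. Expansin-like proteins share the domain layout of expansins, but no such activity is established for them. XTHs cut xyloglucan chains and join the ends to other chains or to water. PMEs remove methyl groups from pectin in the wall, which alters its charge and stiffness, and PMEIs block them.

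Values are log2 signals as the authors deposited them, and a difference of 1 is a change of 2 times. Levels of different genes were not compared, since probes differ in brightness. Calls were made in limma at an adjusted p under 0.05 (Benjamini-Hochberg, over all 16722 probe sets). Both comparisons with control share the same 3 control arrays. The arrays had median signals of 4.69 to 4.91. Replicate 1 of 4'-OH-2,5-DCB stood apart: its SD across probe sets was 1.68, against 2.13 to 2.20 on the other 8. The main results are therefore given with all 9 arrays and without that array.

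Under 2,5-DCB, an alpha-expansin and a beta-expansin fell: EXPA8 by 2.31 and EXPB1 by 1.60 on the log2 scale, which are 4.95-fold and 3.04-fold. No member rose past the test. Thus 2 of 33 probe sets were called lower (6.06%) and 0 higher, where 2.82% of all 16722 were called lower and 1.82% higher. At an unadjusted p under 0.05 there were 8 members (24.2%), against 16.1% of all. The 3 exposed arrays all lay below the 3 control arrays for 9 of 33 members (27.3%) and above them for 1 (3.03%), against 14.1% and 16.8% of all probe sets. The members' median change was 0.00, with 17 above 0 and 16 below, and the median of all probe sets was 0.04. After array medians were centred, the members' median was -0.11 and that of all probe sets -0.07. The falls were thus few and unevenly sized, ranging down to -2.31, while the largest positive value was 0.76.

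Under 4'-OH-2,5-DCB, 1 of 2 probe sets of the alpha-expansin gene EXPA20 fell, by 1.04 on the log2 scale (2.05-fold). It was the only called member, so 1 of 33 was lower (3.03%) and 0 higher, where 1.9% of all probe sets were called lower and 1% higher. At an unadjusted p under 0.05 there were 12 members (36.4%), against 17.3% of all. The exposed arrays lay all below control for 6 members (18.2%) and all above for 5 (15.2%), against 11.4% and 11.2% of all probe sets. The members' median was 0.25, with 24 above 0 and 9 below, beside 0.10 for all probe sets. After array medians were centred, the members' median was 0.06 and that of all probe sets -0.09. Without 4'-OH-2,5-DCB replicate 1 that median was -0.00, with 16 above 0 and 17 below, beside 0.02 for all. The 2 remaining arrays then lay all below control for 9 members (27.3%) and all above for 8 (24.2%), beside 17.8% and 20.7% of all.

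**Figure D1:**
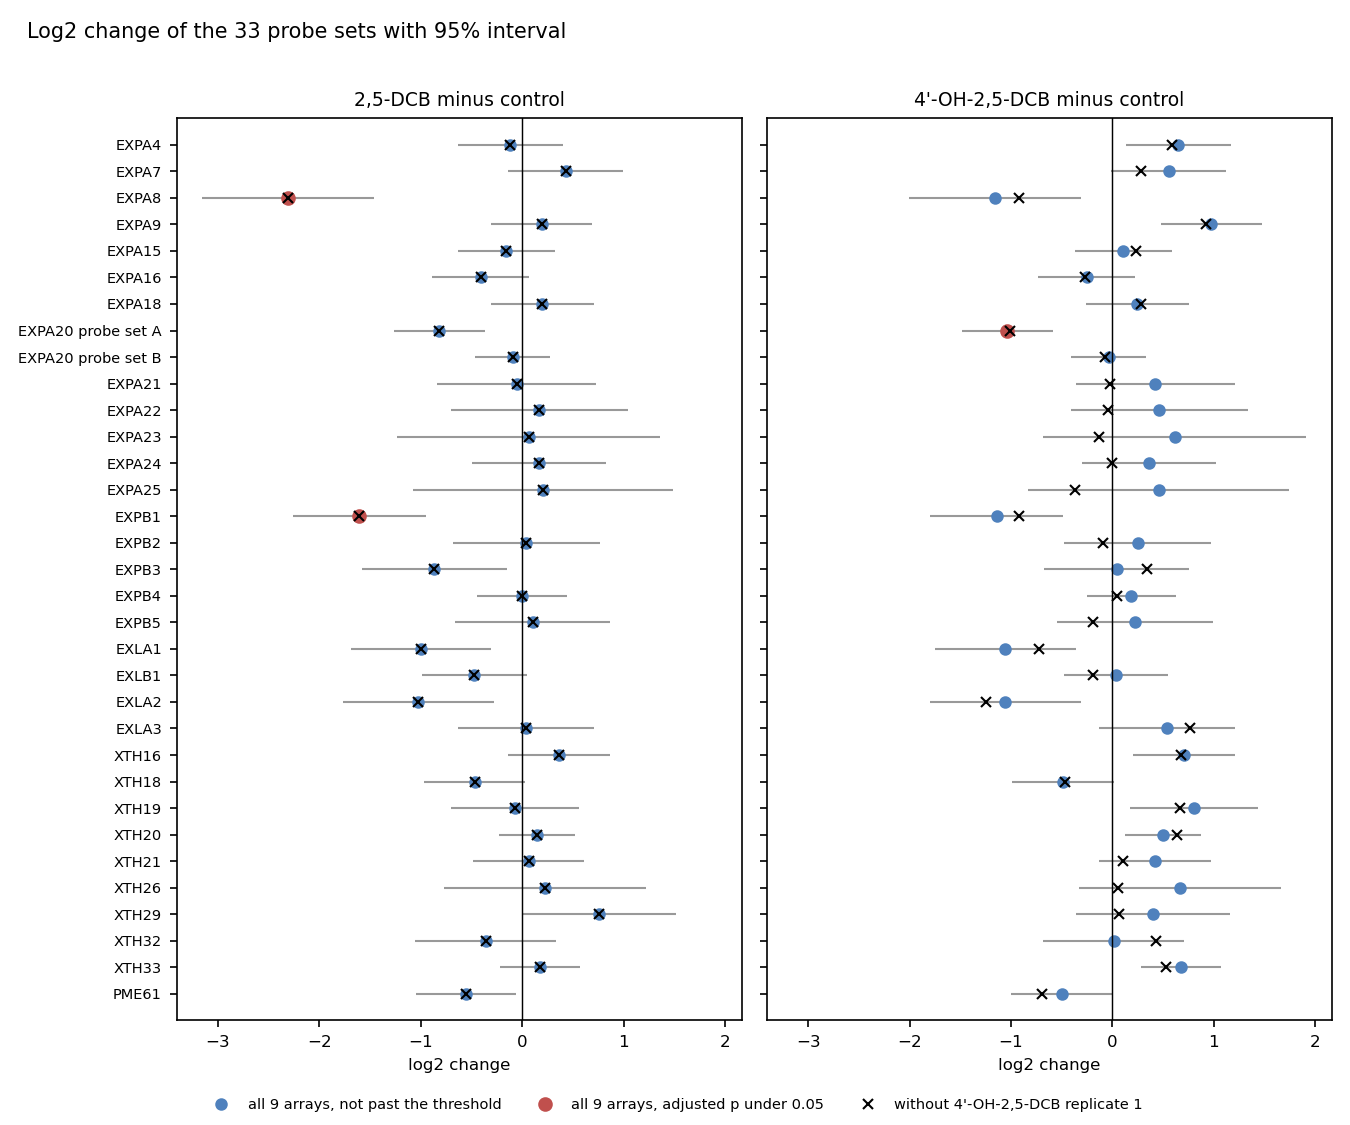
Log2 change of each of the 33 probe sets under 2,5-DCB (left) and 4'-OH-2,5-DCB (right), each minus control, with 95% intervals. Crosses are the values without 4'-OH-2,5-DCB replicate 1, and red marks an adjusted p under 0.05: EXPA8 and EXPB1 under 2,5-DCB, and EXPA20 probe set A under 4'-OH-2,5-DCB.

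Among the alpha-expansins, EXPA8 (AT2G40610, chromosome 2) had the largest change. Its log2 signals were 7.71, 6.52 and 7.93 under 2,5-DCB, 8.06, 8.65 and 8.90 in 4'-OH-2,5-DCB plants, and 9.64, 10.04 and 9.40 in control plants. No exposed array reached a control array, and all 3 of 2,5-DCB lay below all 3 of 4'-OH-2,5-DCB. The change under 2,5-DCB was -2.31 ± 0.38 (SE, adjusted p = 0.0113), and the adjusted p was 0.0053 without 4'-OH-2,5-DCB replicate 1. Leaving out control replicate 2 ended the call, with a difference of -2.13 and an adjusted p of 0.0629. For 4'-OH-2,5-DCB, EXPA8 differed from control by -1.16 ± 0.38 (SE), which did not pass (adjusted p = 0.156), and -0.92 without replicate 1 (adjusted p = 0.212). In RNA from whole plants, fewer cells of a type and less RNA per cell cannot be told apart.

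EXPA20 (AT4G38210, chromosome 4), an alpha-expansin gene, was measured by a pair of probe sets, named A and B here. Probe set A gave 6.53, 6.68 and 6.24 under 2,5-DCB, 6.21, 6.52 and 6.06 in 4'-OH-2,5-DCB plants, and 7.36, 7.51 and 7.04 in control plants. All 6 exposed arrays lay below all 3 control arrays. The fall under 4'-OH-2,5-DCB was -1.04 ± 0.20 (SE, adjusted p = 0.0287), and -1.01 without replicate 1 of that group (adjusted p = 0.0255). Under 2,5-DCB the difference was -0.82 ± 0.20, just outside the threshold with all arrays (adjusted p = 0.0518) and a called fall without 4'-OH-2,5-DCB replicate 1 (adjusted p = 0.0230). That was 1 of 9 fits leaving out an array, and the only such fit with the call. It was also called in 8 of 10 other alternatives, among them quantile normalization (adjusted p = 0.0387), centred medians (0.0326) and array weights (0.0163).

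The call of probe set A under 4'-OH-2,5-DCB depended on which arrays were in the fit. It ended without control replicate 1 (adjusted p = 0.100), 2 (0.134) or 3 (0.0539), without 2,5-DCB replicate 1 (0.0555) or 2 (0.0527), without 4'-OH-2,5-DCB replicate 3 (0.0668), and with only the 6 arrays of the comparison (0.102). It held in the other 3 fits that left out an array.

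Probe set B of EXPA20 gave no such difference. Its signals were 5.73, 5.63 and 5.37 under 2,5-DCB, 5.70, 5.53 and 5.67 in 4'-OH-2,5-DCB plants, and 5.64, 5.87 and 5.51 in control plants, and the groups overlapped. The log2 differences from control were -0.09 under 2,5-DCB (95% interval -0.47 to 0.28) and -0.04 under 4'-OH-2,5-DCB (-0.41 to 0.33). The difference between A and B on the same array, in which a fixed difference in probe brightness cancels between groups, was 0.80, 1.05 and 0.87 under 2,5-DCB, 0.52, 0.99 and 0.39 in 4'-OH-2,5-DCB plants, and 1.72, 1.64 and 1.53 in control plants. It was thus smaller on every exposed array than on any control array, by 0.73 under 2,5-DCB and by 1.00 under 4'-OH-2,5-DCB (exact permutation test, two-sided p = 0.1 for each, the smallest that 3 against 3 arrays allow). Where on the gene, and on which strand, each probe set lies is not known here, so the fall is reported for probe set A and not for the gene.

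EXPA7 and EXPA18 are root hair expansins, needed for or expressed during the outgrowth of root hair cells. EXPA7 had signals of 3.42, 3.70 and 3.58 under 2,5-DCB, 4.23, 3.69 and 3.15 in 4'-OH-2,5-DCB plants, and 3.25, 3.17 and 2.99 in control plants. It was the 1 member with all 3 arrays of 2,5-DCB above all 3 of control. The difference of 0.43 ± 0.25 (SE) did not pass (adjusted p = 0.489), nor did 0.55 ± 0.25 under 4'-OH-2,5-DCB (adjusted p = 0.303), which was 0.28 without replicate 1. EXPA18 averaged 3.14 ± 0.36 under 2,5-DCB, 3.18 ± 0.14 under 4'-OH-2,5-DCB and 2.94 ± 0.30 in control plants (mean ± SD, n = 3 each), and was under the 25th percentile of its array on 4 of 9 arrays.

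The highest positive difference among expansins under 4'-OH-2,5-DCB was that of EXPA9, an alpha-expansin. Its signals were 6.01, 6.21 and 5.51 under 4'-OH-2,5-DCB, against 5.23, 4.84 and 4.73 in control plants, and the groups did not overlap. The difference of 0.97 ± 0.22 (SE) stood just outside the threshold with all 9 arrays (adjusted p = 0.0528) and without replicate 1 (0.92, adjusted p = 0.0519). EXPA9 was called higher in 4 of 10 alternatives that kept the arrays compared. These left out probe sets under the 25th or 50th percentile (adjusted p = 0.0349 and 0.0240), or used trend and robust options (0.0402) or array weights (0.0156). Under 2,5-DCB, EXPA9 had 5.12, 5.30 and 4.96, which overlapped control, with a difference of 0.19 (adjusted p = 0.846). EXPA4 had 8.71, 8.47 and 8.57 under 4'-OH-2,5-DCB, against 8.04, 8.04 and 7.72 in control plants, a difference of 0.65 that did not pass (adjusted p = 0.192), and 0.59 without replicate 1 (0.200). Its signals under 2,5-DCB were 7.29, 8.04 and 8.12, with a difference of -0.12. EXPA15 and EXPA16 differed from control by -0.41 to 0.11 in both exposures, and neither passed.

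EXPA21, EXPA22, EXPA23, EXPA25 and EXPA24 lie on chromosome 5 in a run of 6 consecutive protein-coding genes with EXP26, whose symbol does not meet the naming rule. With all arrays their differences under 4'-OH-2,5-DCB were 0.36 to 0.61, and without replicate 1 they were -0.37 to -0.00. The 3 arrays behind EXPA25 gave 7.90, 5.54 and 5.29 under 4'-OH-2,5-DCB, beside 6.29, 5.89 and 5.79 under 2,5-DCB and 5.62, 5.80 and 5.94 in control plants. EXPA23 gave 5.98, 3.49 and 3.97 under 4'-OH-2,5-DCB, beside 4.46, 3.72 and 3.61 under 2,5-DCB and 3.35, 4.36 and 3.89 in control plants. Both had their highest value on the array of replicate 1. That replicate exceeded the mean of replicates 2 and 3 by 1.36, 1.52, 2.25, 1.10 and 2.48 for EXPA21, EXPA22, EXPA23, EXPA24 and EXPA25. EXPA21 was under the 25th percentile on 7 of 9 arrays. None of the 5 was called in any comparison, with or without that array.

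**Figure D2:**
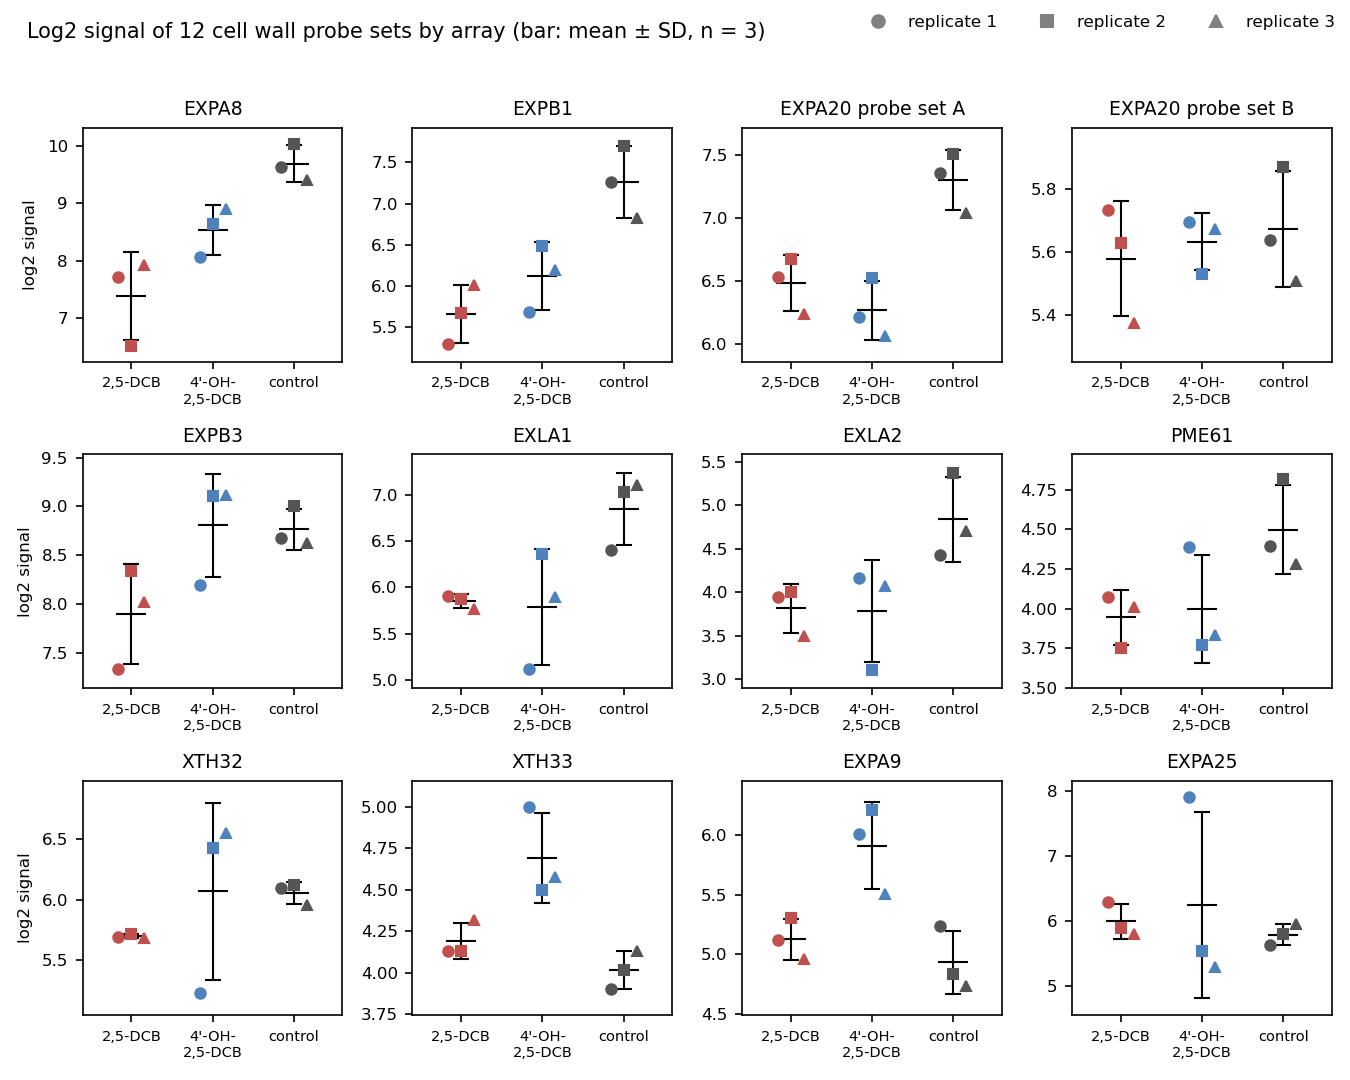
Log2 signal of 12 member probe sets on each of the 9 arrays, by group, with bars for the mean ± SD (n = 3 per group). EXPA8, EXPB1 and EXPA20 probe set A lie below control on all exposed arrays, EXPA20 probe set B overlaps control, and EXPA25 is highest on 4'-OH-2,5-DCB replicate 1.

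Of the beta-expansins, EXPB1 (AT2G20750, chromosome 2) fell under 2,5-DCB. Its signals were 5.30, 5.67 and 6.01 under 2,5-DCB, 5.68, 6.49 and 6.19 in 4'-OH-2,5-DCB plants, and 7.26, 7.70 and 6.83 in control plants. All exposed arrays lay below all control arrays. The fall under 2,5-DCB was -1.60 ± 0.29 (SE, adjusted p = 0.0181), and the adjusted p was 0.00596 without 4'-OH-2,5-DCB replicate 1. The call ended without control replicate 1 (adjusted p = 0.0619) or 2 (0.0842) and without 2,5-DCB replicate 1 (0.0630) or 2 (0.0779). For 4'-OH-2,5-DCB, the difference was -1.14 ± 0.29 (adjusted p = 0.0761), and -0.92 without replicate 1 (adjusted p = 0.0896). It passed in 4 of 10 alternatives that kept the arrays compared. These were quantile normalization (adjusted p = 0.0416), centred medians (0.0343), probe sets under the 50th percentile left out (0.0394) and array weights (0.0495).

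EXPB3 (AT4G28250), another beta-expansin, was not called with all arrays weighted alike. It had 7.34, 8.34 and 8.03 under 2,5-DCB, 8.20, 9.11 and 9.12 in 4'-OH-2,5-DCB plants, and 8.67, 9.01 and 8.62 in control plants. The 2,5-DCB arrays lay all below control, a difference of -0.86, which passed without 4'-OH-2,5-DCB replicate 1 (adjusted p = 0.0498) and with array weights (0.0380) but not with all arrays weighted alike (0.197). With 4'-OH-2,5-DCB the difference was 0.04 (adjusted p = 0.950), and 0.34 without replicate 1 (0.515). EXPB2, EXPB4 and EXPB5 differed from control by 0.00 to 0.25 in both exposures and were not called. Without 4'-OH-2,5-DCB replicate 1, their differences in that group were -0.09, 0.05 and -0.19. EXPB4 was under the 25th percentile on 7 of 9 arrays.

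The expansin-like genes EXLA1 and EXLA2 had lower means in both exposures, and neither was called on the deposited values with all arrays weighted alike. EXLA1 gave 5.91, 5.88 and 5.77 under 2,5-DCB, 5.11, 6.36 and 5.89 in 4'-OH-2,5-DCB plants, and 6.40, 7.03 and 7.10 in control plants. Its difference under 2,5-DCB was -0.995 ± 0.31 (SE), with an adjusted p of 0.120 for all arrays and 0.0160 without 4'-OH-2,5-DCB replicate 1. It also passed with only the 6 arrays compared (0.0247) and with array weights (0.00799). The 4'-OH-2,5-DCB group differed by -1.06 (adjusted p = 0.112), and -0.72 without that replicate.

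EXLA2 gave 3.95, 4.0 and 3.49 under 2,5-DCB, 4.16, 3.11 and 4.07 in 4'-OH-2,5-DCB plants, and 4.43, 5.37 and 4.71 in control plants. The difference under 2,5-DCB was -1.02, with an adjusted p of 0.141, and 0.0680 on the 8 remaining arrays. That under 4'-OH-2,5-DCB was -1.05 (adjusted p = 0.142), and -1.25 without replicate 1 (0.0700). EXLA2 was called lower under 4'-OH-2,5-DCB with quantile normalization (adjusted p = 0.0350) and with array weights (0.0247), and under 2,5-DCB with array weights (0.0480). For both genes, every exposed array lay below every control array. EXLA3, adjacent to EXLA1 on chromosome 3, overlapped control in both exposures, with differences of 0.04 for 2,5-DCB and 0.54 for 4'-OH-2,5-DCB. Without replicate 1, EXLA3 differed by 0.76 in the 4'-OH-2,5-DCB group, with no overlap and an adjusted p of 0.161. EXLB1 gave 4.54, 4.43 and 4.95 under 2,5-DCB, against 5.05, 5.24 and 5.05 in control plants, a difference of -0.47 (adjusted p = 0.367).

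Of the 9 XTHs, 0 were called in either comparison with control when all arrays were fitted with equal weight. Their median difference was 0.14 for 2,5-DCB, and 0.50 for 4'-OH-2,5-DCB, where 8 of 9 were above 0. At an unadjusted p under 0.05 there were 1 (11.1%) and 4 (44.4%), beside 16.1% and 17.3% of all probe sets. Without replicate 1 of 4'-OH-2,5-DCB, the XTH median in that comparison was 0.43, beside 0.02 for all probe sets, again with 8 of 9 above 0. EXGT-A3, a relative by an earlier name and not among the 9, went the other way under 4'-OH-2,5-DCB. It differed from control by -0.99 (adjusted p = 0.0688), and by -0.74 without replicate 1 (0.0519), and was not called. XTH32 gave 5.70, 5.72 and 5.69 under 2,5-DCB, 5.23, 6.43 and 6.56 in 4'-OH-2,5-DCB plants, and 6.10, 6.13 and 5.96 in control plants. The 2,5-DCB arrays lay close together (SD 0.02) and all below control, a difference of -0.36 that did not pass with all arrays (adjusted p = 0.719). The same difference passed without 4'-OH-2,5-DCB replicate 1, an array of neither group (adjusted p = 0.0453). It passed in 0 of 10 other alternatives, among them only the 6 arrays compared (0.0611) and array weights (0.0913). Of the 4'-OH-2,5-DCB arrays, replicate 1 lay below control and replicates 2 and 3 above it, so the difference was 0.01 with all arrays and 0.43 without replicate 1 (adjusted p = 0.0510).

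XTH33, an XTH with a predicted membrane anchor, gave 5.00, 4.50 and 4.58 under 4'-OH-2,5-DCB, against 3.90, 4.01 and 4.13 in control plants. These groups did not overlap, and the difference of 0.68 ± 0.17 (SE) passed without replicate 1 (0.52, adjusted p = 0.0394) and with array weights (0.0209) but not with all arrays weighted alike (0.0787). Under 2,5-DCB it gave 4.13, 4.13 and 4.32, a difference of 0.18. XTH20 gave 2.25, 2.65 and 2.64 under 4'-OH-2,5-DCB, against 2.05, 1.99 and 2.01 in control plants, a difference of 0.50 (adjusted p = 0.167). It likewise passed without replicate 1 (0.63, adjusted p = 0.0208) and with array weights (0.00796). It was under the 25th percentile on all 9 arrays, where a signal may be background.

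XTH18, XTH19 and XTH20 are close relatives in a group of XTHs expressed in roots, and XTH18 and XTH19 are neighbours on chromosome 4. XTH19 gave 2.22, 2.09 and 2.42 under 2,5-DCB, 3.41, 3.53 and 2.43 in 4'-OH-2,5-DCB plants, and 2.31, 2.53 and 2.11 in control plants. The difference of 0.81 under 4'-OH-2,5-DCB did not pass (adjusted p = 0.183), nor did 0.66 without replicate 1 (0.229), and XTH19 was under the 25th percentile on 8 of 9 arrays. XTH18 gave 3.84, 4.56 and 4.39 under 2,5-DCB, 4.21, 4.46 and 4.06 in 4'-OH-2,5-DCB plants, and 4.52, 4.70 and 4.97 in control plants. Its differences were -0.47 (adjusted p = 0.351) and -0.49 (adjusted p = 0.305), and neither passed.

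XTH29 had the largest positive difference of any member under 2,5-DCB. It gave 3.92, 4.35 and 4.78 under 2,5-DCB, against 3.21, 3.62 and 3.95 in control plants, and the groups overlapped (0.76, adjusted p = 0.309). XTH26, an XTH of root hairs, gave 5.72, 3.86 and 3.90 under 4'-OH-2,5-DCB, against 3.41, 4.04 and 4.04 in control plants. Its difference of 0.66 with all arrays was 0.05 without replicate 1. XTH16 gave 5.72, 5.59 and 5.67 under 4'-OH-2,5-DCB, against 4.83, 4.87 and 5.16 in control plants, a difference of 0.70 without overlap that did not pass (adjusted p = 0.147), and 0.67 without replicate 1 (0.139). XTH21 differed from control by 0.06 for 2,5-DCB and 0.42 for 4'-OH-2,5-DCB, and by 0.11 without replicate 1 of the 4'-OH-2,5-DCB group.

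PME61 was the 1 gene measured under a PME symbol with a number, and genes with other PME names are given further below. PME61 gave 4.07, 3.75 and 4.01 under 2,5-DCB, 4.39, 3.77 and 3.83 in 4'-OH-2,5-DCB plants, and 4.40, 4.82 and 4.28 in control plants. The arrays of 2,5-DCB lay all below control, and those of 4'-OH-2,5-DCB overlapped it through replicate 1. The differences were -0.55 ± 0.22 under 2,5-DCB (SE, adjusted p = 0.245) and -0.50 ± 0.22 under 4'-OH-2,5-DCB (adjusted p = 0.285). Without 4'-OH-2,5-DCB replicate 1 they were -0.55 (adjusted p = 0.0548) and -0.70 (adjusted p = 0.0522), and neither passed. PME61 was called lower in both exposures with quantile normalization (adjusted p = 0.0482 for 2,5-DCB and 0.0388 for 4'-OH-2,5-DCB) and with array weights (0.0407 and 0.0262).

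**Figure D3:**
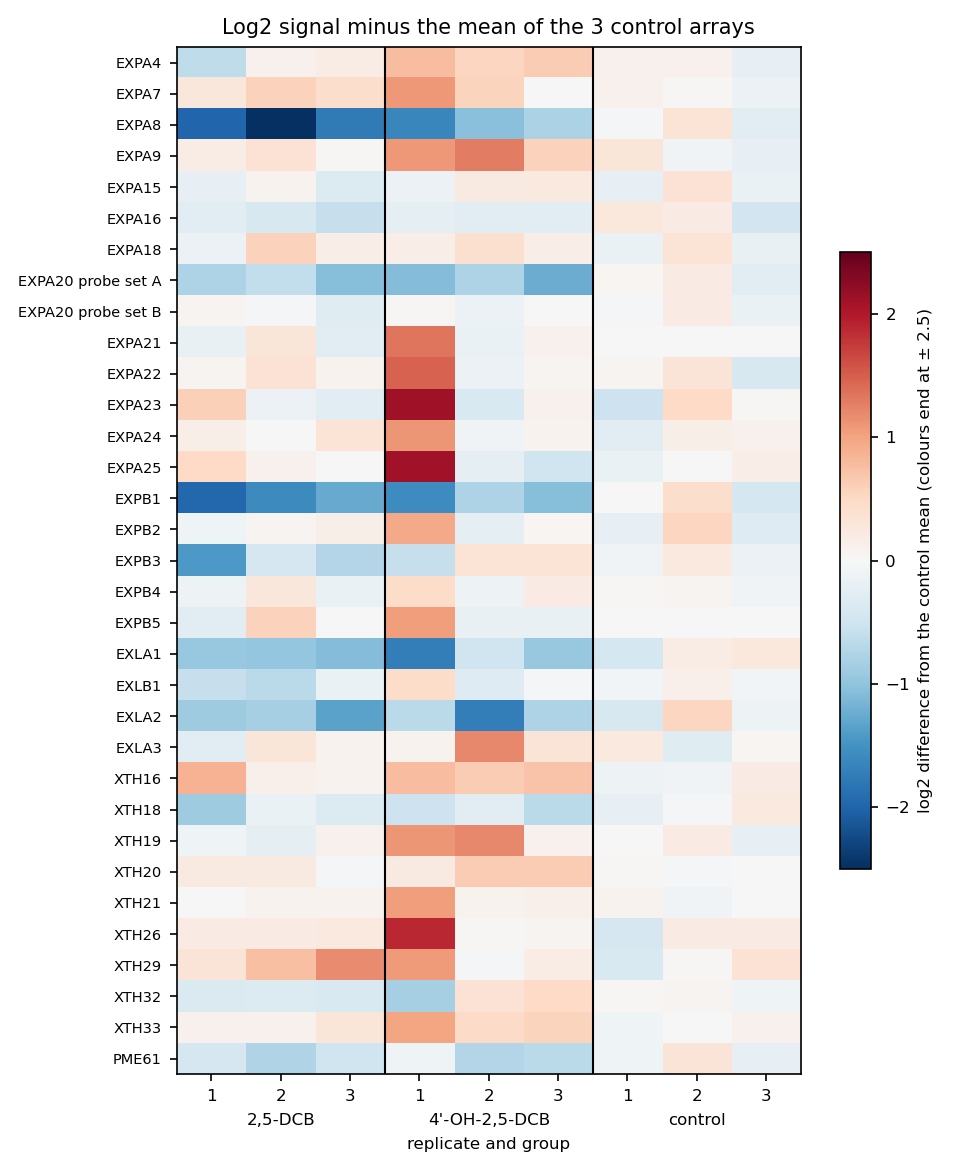
Log2 signal of each of the 33 probe sets on each of the 9 arrays, minus the mean of that probe set over the control arrays, with colours ending at ±2.5. EXPA8, EXPB1 and EXPA20 probe set A are below control on all 6 exposed arrays, and EXPA21 to EXPA25 are high on 4'-OH-2,5-DCB replicate 1.

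The exposures were then set against each other, as 4'-OH-2,5-DCB minus 2,5-DCB (5 against 50 mg per L), over the 33 probe sets. Of these, 0 were called, as were 0% of all probe sets, and 6 of 33 members had an unadjusted p under 0.05 (18.2%), beside 9.9% of all. The arrays of 4'-OH-2,5-DCB lay all above those of 2,5-DCB for 5 members (15.2%) and all below for 0, beside 6.89% and 8.35% of all. EXPA8 was among the 5, with a difference of 1.15 (95% interval 0.31 to 2.00, adjusted p = 0.365). The others were EXPA4 (0.77, interval 0.25 to 1.28), EXPA9 (0.78, 0.28 to 1.28), XTH19 (0.88, 0.25 to 1.51) and XTH33 (0.50, 0.11 to 0.89), with adjusted p-values between 0.278 and 0.399. For EXPB3 the difference was 0.90 (interval 0.19 to 1.62, adjusted p = 0.399). For EXPA20 probe set A and EXPB1, intervals of -0.67 to 0.23 and -0.20 to 1.12 contain 0, which does not show that the exposures act alike.

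Without 4'-OH-2,5-DCB replicate 1, the difference between the exposures was called for XTH32 alone, at 0.79 (adjusted p = 0.0348), 1 of 33 members (3.03%) beside 0.377% of all probe sets. The 2 remaining arrays of 4'-OH-2,5-DCB then lay all above those of 2,5-DCB for 11 members (33.3%) and all below for 4 (12.1%), beside 15% and 15.8% of all. EXPA8 then differed by 1.39 (adjusted p = 0.165), EXPB3 by 1.21 (0.0978), EXPA4 by 0.71 (0.232), EXPA9 by 0.73 (0.201), XTH19 by 0.74 (0.291) and XTH33 by 0.35 (0.240). Likewise without that array, the members called lower under 2,5-DCB were 6 of 33 (18.2%): EXPA8, EXPA20 probe set A, EXPB1, EXPB3, EXLA1 and XTH32, beside 7% of all, and 0 were higher, beside 5.92%. For 4'-OH-2,5-DCB they were 2 higher (6.06%), XTH20 and XTH33, and 1 lower (3.03%), EXPA20 probe set A, beside 3.41% and 3.74% of all. Leaving out other arrays moved the counts too. Under 2,5-DCB there were 0 calls without control replicate 2 and 1 without control replicate 1, 2,5-DCB replicate 1 or 2,5-DCB replicate 2. The shares of all probe sets called in these fits are not given here, so these counts are not read as particular to the members. Leaving out 4'-OH-2,5-DCB replicate 3 gave called rises of EXPA9 (1.18, adjusted p = 0.0308) and XTH19 (1.15, adjusted p = 0.0265) in that group against control.

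Replicate 1 of 4'-OH-2,5-DCB had higher signals than replicates 2 and 3 for dim probe sets and lower ones for bright probe sets. Where the control mean was under 5, its signal exceeded the mean of replicates 2 and 3 by a median of 0.67 over all probe sets. It was higher for 18 of 22 members there, and for 83.4% of all probe sets. Where the control mean was 5 or more, the median was -0.39, and 4 of 11 members were higher, beside 24.1% of all probe sets. Of the 33 members, 14 had their highest value on this array, as did 38.2% of all probe sets. EXPA25, with a control mean of 5.79, was higher by 2.48, where the median for probe sets with control means of 5 to 6 was -0.10. Set against the mean of replicates 2 and 3, replicate 1 differed by -1.01 for EXLA1 and by -1.26 for XTH32, where the median for control means of 6 to 7 was -0.36. The part of this array in the values of these members was not tested.

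**Figure D4:**
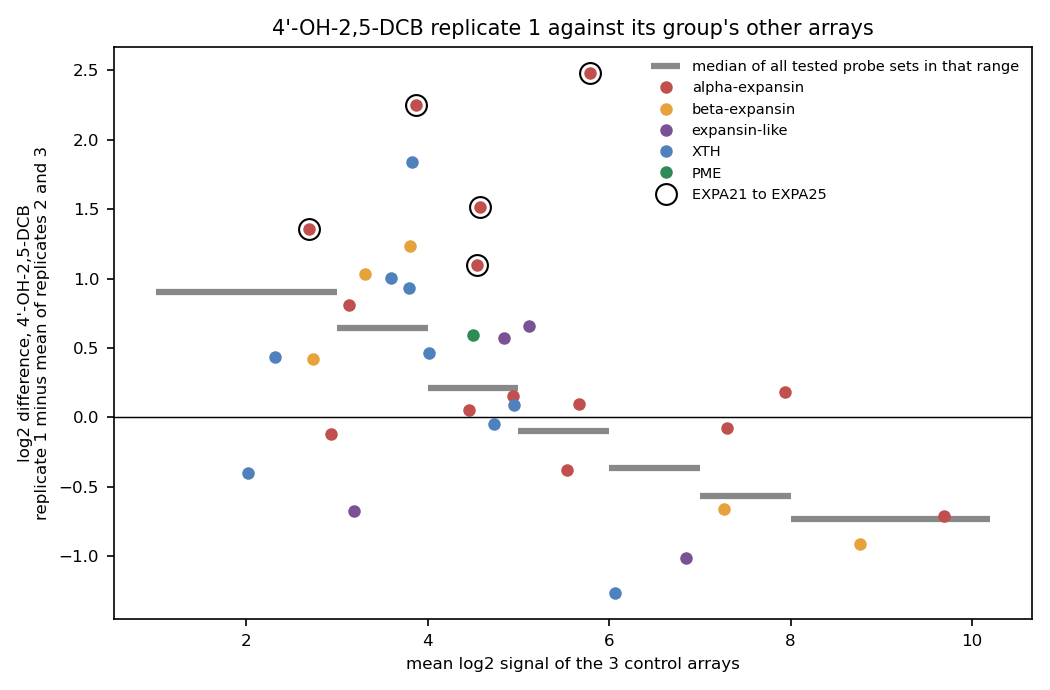
Log2 signal of 4'-OH-2,5-DCB replicate 1 minus the mean of replicates 2 and 3 (y axis) against the control mean log2 signal (x axis) for the 33 members, with grey bars at the median of all probe sets in each range of level. Bars decline from 0.90 under 3 to -0.73 at 8 or more, and EXPA21 to EXPA25, circled, lie above the bars.

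Markers of organs were read beside these results, since whole plants may hold organs in different shares. The mean over 4 leaf and photosynthesis probe sets was 8.39 to 8.55 on the 2,5-DCB arrays, 8.31 to 8.69 on those of 4'-OH-2,5-DCB and 8.83 to 8.92 on control arrays. Of these 4 probe sets, 1 was called, LHCB4.2 (a light-harvesting protein), which fell by 0.95 under 2,5-DCB (adjusted p = 0.0308). LHCB4.3 went the other way under 2,5-DCB (0.29, adjusted p = 0.522), and RCA differed by -0.39 (adjusted p = 0.347). Under 4'-OH-2,5-DCB 0 of the 4 were called, and RCA differed by -0.02 without replicate 1. Without 4'-OH-2,5-DCB replicate 1, LHCB4.1 was called lower under 2,5-DCB as well (-0.50, adjusted p = 0.0446). The 1 root marker measured, PYK10 (a root beta-glucosidase), averaged 11.47 ± 0.26 under 2,5-DCB, 11.69 ± 0.39 under 4'-OH-2,5-DCB and 10.59 ± 0.26 in control plants. It was called higher under 4'-OH-2,5-DCB by 1.11 (adjusted p = 0.0438) and not under 2,5-DCB (0.88, adjusted p = 0.0770), where it passed without 4'-OH-2,5-DCB replicate 1 (0.0205). The 2 root hair markers and 7 pollen and flower markers had 0 calls with all arrays, and 2 of those 7 were under the 25th percentile on all 9 arrays. Without 4'-OH-2,5-DCB replicate 1, the root hair gene CSLD2 was called lower under 4'-OH-2,5-DCB (-0.53, adjusted p = 0.0459). The other root hair marker, GH9C1, was higher there and not called (0.48, adjusted p = 0.343), and the median of the 2 was -0.02. Also without that array, the pollen gene VGD1 was called lower by 1.13 under 2,5-DCB (0.0325) and by 1.30 under 4'-OH-2,5-DCB (0.0431). VGD1 was under the 25th percentile on 2 of 3 arrays of 2,5-DCB and 1 of 3 of 4'-OH-2,5-DCB. The median of the 7 in that fit was -0.13 under 2,5-DCB, where ANX1 (0.28) and ANX2 (0.51) were higher. Under 4'-OH-2,5-DCB it was -0.27, and ANX2 was higher (0.07). The part of organ shares in the changes of the members was not tested.

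Other wall genes were read from lists. Of 19 probe sets for GH9 endoglucanases, which cut glucan chains, 0 were called in either comparison with control, with medians of 0.01 for 2,5-DCB and 0.28 for 4'-OH-2,5-DCB. That median of 0.28 was -0.00 without replicate 1. Without 4'-OH-2,5-DCB replicate 1, 3 of 19 fell under 2,5-DCB, beside 7% of all probe sets: GH9C2 by 0.71, GH9B8 by 0.50 and GH9B13 by 0.86. The polygalacturonase ADPG1, which cuts pectin, was not called, with differences of 0.63 for 2,5-DCB and 0.38 for 4'-OH-2,5-DCB (-0.05 without replicate 1). The wall galactosidases BGAL15 and BGAL16 were not called either. A further 8 probe sets of genes that have carried an expansin, XTH or PME name, EXP26 and EXGT-A3 among them, were not called in any comparison. Of those with PME in their symbol, PMEPCRF differed by 0.39 and ATPMEPCRB by 0.29 under 2,5-DCB. ATPMEPCRD differed there by -0.14 and PPME1 by -0.04.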

How the data were processed

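RNA from 9 whole-plant samples was measured on Affymetrix arrays, and titles and characteristics gave the groups. The values are log2 signals per probe set, as the authors deposited them. Per the submitters' processing notes, the software was Affymetrix Expression Console; its version and summarization method are not stated there. The table held 38408 probe sets, and 0 further columns of sample values. Of the probe sets, 17481 were listed in the platform annotation, 16722 with 1 gene and 759 with several. Gene IDs linked 16574 of them to current symbols in RefSeq (TAIR10.1). The number of arrays limits the precision.

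All 9 arrays were fitted together on the 16722 probe sets with lmFit and eBayes of limma 3.58.1 in R 4.3.3, 1 term per group, and p-values were adjusted over all of them (Benjamini-Hochberg, two-sided). The fit was tested on simulated data. Intervals are 95%. Members were named where called in any fit given, where the choice of genes names them (EXPA7, EXPA8, EXPA20, EXPB1), or where brightest or most changed in their family, brightness serving only to choose names, and the other members are described more briefly. The members and the gene lists were chosen with earlier results of these data known, and the 8 relatives by earlier name after the annotation was seen. The pectin and wall protein lists matched by symbol PGL34, PEX4 and PRP39, which RefSeq describes as plastoglobulin, peroxin and splicing proteins, so they are not counted as wall genes. Alternatives were other scalings, filters, array sets, spread models, array weights, a minimum change and a block.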

Additional observations from a re-analysis of the deposited data

How the results depend on the processing

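Of 425 values of named members under an alternative, 368 kept their direction and their side of the threshold. A further 33 passed where they had not, 15 no longer passed and 9 changed sign. The share of all probe sets called is given in brackets beside the counts of members, except for the ranges from leaving out an array. Under 2,5-DCB the count, 2 as given (4.65%), was 4 with quantile normalization (6.18%) and 4 with only the 6 arrays compared (10.3%). It was 7 with array weights (14.7%), 0 with a minimum change of 2 times (0.0957%), and 0 to 6 when each array was left out in turn. EXPA20 probe set A made it 3 with centred medians (5.01%) and with trend and robust options (5.34%). The same held with probe sets under the 25th and 50th percentile left out (8.06% and 11.1%). Under 4'-OH-2,5-DCB the count, 1 as given (2.91%), was 4 with quantile normalization (5.12%) and 2 with centred medians (4.22%). It was 2 and 3 with probe sets under the 25th and 50th percentile left out (5.54% and 8.59%), 0 with only the 6 arrays compared (0.586%), 2 with trend and robust options (3.62%), 7 with array weights (10.9%) and 0 with a minimum change of 2 times (0.0359%), and 0 to 3 when each array was left out. Between the exposures the count, 0 as given (0%), was 2 with array weights (EXPB3 and XTH32, 2.09%) and 0 to 1 when each array was left out. Array weights gave 4'-OH-2,5-DCB replicate 1 a weight of 0.065, against 1.16 to 1.92 for the other 8. Other causes of these changes were not tested.

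Quantile normalization and centring moved the median of all probe sets under 4'-OH-2,5-DCB to -0.04 and -0.09, against 0.10 as deposited, and the members' median to 0.15 and 0.06, against 0.25. Under 2,5-DCB the members' median was -0.11 under each, against 0.00, and that of all probe sets -0.04 and -0.07, against 0.04. Sign changes concerned small differences. XTH32 under 4'-OH-2,5-DCB was -0.066 with quantile normalization and -0.18 with centring, and -0.23 to 0.43 when each array was left out. EXPA20 probe set B was -0.18 to 0.0088 under 2,5-DCB and -0.12 to 0.061 under 4'-OH-2,5-DCB when each array was left out. Deviations of same-numbered arrays correlated at -0.247 to 0.0742, beside -0.213 to 0.261 for arrays of different number, so no pairing by number was seen. Deviations from a mean of 3 arrays depend on each other, so this check cannot show whether the samples were paired. With the replicate number as a block, 3 members were called under 2,5-DCB (2.37% of all probe sets), with EXPA20 probe set A added (adjusted p = 0.0449). That fit called 1 member under 4'-OH-2,5-DCB (1.42%) and 0 between the exposures (0%). The alternative with relatives by earlier name, added after seeing the data, gave 2 and 1.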

Other observations

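A list of pectin enzymes matched by symbol PGL34, which RefSeq describes as a plastoglobulin, a protein of plastid lipid droplets. It fell by 0.76 under 4'-OH-2,5-DCB (adjusted p = 0.0301 in limma), and its difference under 2,5-DCB was -0.46 (adjusted p = 0.136). A list of wall proteins matched PEX4 and PRP39, and neither was called in any comparison.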
